A study of Rattus norvegicus with 23 samples.

Results

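Collagens are the main fibre and sheet proteins of the extracellular matrix, each built from 3 chains that wind into a triple helix, and in the kidney they form both the interstitial fibres made by fibroblasts and the basement membranes on which epithelial cells rest. The genes described here are the chains themselves, chosen as every protein-coding gene of the rat count table whose symbol reads Col, a number, a and a number. This gave 44 genes of 30452 in the table. Fibrillar chains form the banded fibres that carry tension, FACIT chains attach to the surface of such fibres, network chains of type IV build the basement membrane sheet, and type VI chains assemble into beaded filaments around cells. The remaining classes hold the short chains of type VIII and X, the multiplexins that release an antiangiogenic fragment, and chains with a membrane anchor. Collagen accumulates in renal fibrosis, and acidosis accompanies kidney disease. Both cell lines were compared in culture, at a control pH and at an acidic pH that the study calls non-damaging.

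NRK-52E (labelled NRKE) is an epithelial line and NRK-49F (labelled NRKF) a fibroblast line, both from normal rat kidney and each an established line, so that samples within a group are cultures of 1 line and not animals. All groups were monocultures that had 24 h without serum, followed by 48 h in medium at either pH 7.4, the control, or the acidic pH 6.0, without any further treatment or genetic change. RNA was sequenced from n = 6 samples of NRK-52E cells at each pH, n = 6 of NRK-49F cells at pH 7.4 and n = 5 at pH 6.0. The labels further place each sample in sample group 1 or 3 (NRK-52E) or 4 or 6 (NRK-49F), each of which holds both pH values, and do not say what a sample group is. Sample group 4 holds only A042 and A043 at pH 6.0, and results within single sample groups rest on few samples. The study calls its samples biological, but no source used here says whether those of a group came from independent cultures, so p-values measure the spread between these samples, which may be technical.

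Total counts ranged from 16412564 to 34250535 per sample, and 3 counts, taken as the lowest level that the depth can show, correspond to between 0.0839 and 0.203 FPM (counts per 1000000 of the library size after TMM scaling in edgeR, a limit that covers counting error only). The line labels were checked against fixed marker lists. In NRK-52E samples at pH 7.4, 5 of 19 epithelial markers reached a mean of 5 FPM (Krt8, Spint2, Marveld2, Krt7 and Tjp3), while Epcam, Cdh1 and Krt18 were at or near 0 with means of 0.00758, 0.160 and 0.0185 FPM. Of the 20 fibroblast markers, 5 also reached 5 FPM in these NRK-52E samples (Postn, Fbln1, Pdgfrb, Loxl1 and Ddr2). In NRK-49F samples at pH 7.4, 16 of 20 fibroblast markers and 2 of 19 epithelial markers reached 5 FPM. Krt8 was higher there than in NRK-52E samples at that pH, with means of 839 and 499 FPM. The summed fibroblast markers ranged from 183 to 213 FPM in NRK-52E samples at pH 7.4 and from 68.0 to 102 FPM at pH 6.0, and the summed epithelial markers from 961 to 1354 FPM and from 604 to 916 FPM. In NRK-49F samples the summed fibroblast markers ranged from 3025 to 3375 FPM at pH 7.4 and from 3031 to 3946 FPM at pH 6.0, and the summed epithelial markers from 784 to 1375 FPM and from 548 to 834 FPM, which overlapped the sums of NRK-52E samples at the same pH. The summed macrophage markers of NRK-49F samples ranged from 21.6 to 33.3 FPM at pH 7.4 and from 217 to 251 FPM at pH 6.0. Of these 4 markers Cd68 alone reached 5 FPM, Ptprc and Csf1r had means of at most 0.137 FPM, and Adgre1 was at 0. Their part in the collagen results was not tested. In such bulk RNA, fewer cells of a type and less RNA per cell cannot be told apart.

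Most collagen chains that changed at pH 6.0 were lower, in the epithelial as in the fibroblast line. In NRK-52E cells the 44 genes together took between 1.05% and 1.50% of all counts at pH 7.4 and between 0.570% and 0.638% at pH 6.0, so the samples did not overlap. In NRK-49F cells their share was between 1.31% and 1.85% at pH 7.4 and between 0.872% and 1.42% at pH 6.0, and these ranges did overlap. Of the 44 genes, 28 passed the filter on low counts and were tested, and 25 of these reached a mean of 5 FPM in at least 1 condition. The 16 genes that did not pass had at most 15 counts in any sample. Genes were called at an adjusted p under 0.05 (Benjamini-Hochberg over all 14777 tested genes, quasi-likelihood test of edgeR). At pH 6.0, 23 of the 28 chains changed in the epithelial line, where 61.2% of all tested genes did. Of these chains 4 were higher, beside 24.7% of all genes, and 19 lower, beside 36.6%. Among the 4, Col2a1 and Col23a1 passed the filter only through the acidic NRK-52E samples, where they were high. Among the 19, Col6a5 passed it only through the NRK-52E controls. Requiring at least 10 counts in every sample, which tests fewer genes, gave 1 higher and 11 lower in this line. In the fibroblast line 14 of the 28 changed, against a background of 28.9%, with 3 higher, beside 14.5%, and 11 lower, beside 14.4%. The median log2 fold change of the 28 genes was −1.20 in the epithelial line, beside −0.12 over all tested genes, and −0.57 in NRK-49F cells, beside 0.00 over all tested genes. In the NRK-52E control samples A021, A022 and A033 a set of NRK-49F genes was seen at a low level, described further on, and without these samples the epithelial line had 4 chains higher and 16 lower, and the fibroblast line 4 and 13.

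**Figure D1:**
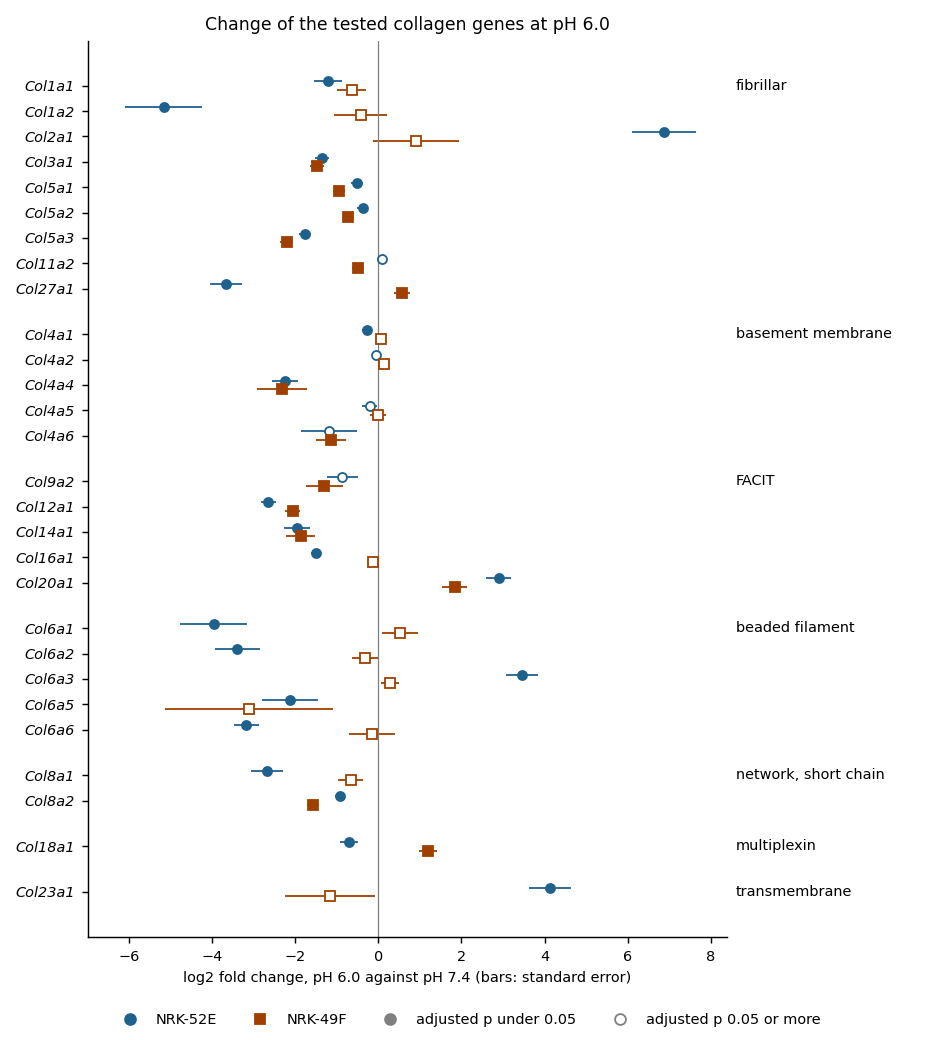
Log2 fold change of pH 6.0 against pH 7.4 (horizontal axis) for the 28 tested collagen genes, grouped by class, with circles for NRK-52E, squares for NRK-49F, bars for the standard error, and filled symbols for an adjusted p under 0.05 in edgeR's test. Most filled symbols lie left of 0 (19 of 23 in NRK-52E and 11 of 14 in NRK-49F), Col20a1 lies right of 0 in both lines, and Col18a1 and Col27a1 lie on opposite sides.

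By class, the summed FPM of the 11 fibrillar genes in NRK-52E cells ranged from 6664 to 10365 at pH 7.4 and from 3400 to 4260 at pH 6.0, a description without a test. The sum of the 9 FACIT genes was between 2169 and 2748 FPM and between 856 and 1479 FPM. In NRK-49F cells the fibrillar sum was between 10814 and 14016 FPM at pH 7.4 and between 7189 and 9821 FPM at pH 6.0, while the beaded filament sum was between 1399 and 1769 FPM and between 1473 and 2107 FPM. The basement membrane sums overlapped between the pH values in both lines. Fibrillar genes made up the largest part of collagen FPM in every condition, with medians of at least 66.8%. The beaded filament genes took a median of 8.93% in NRK-49F cells at pH 7.4 and 13.6% at pH 6.0, against 0.127% and 0.0593% in NRK-52E cells. These sums are not corrected for transcript length, so they weight long transcripts more and do not rank classes by molecules.

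**Figure D2:**
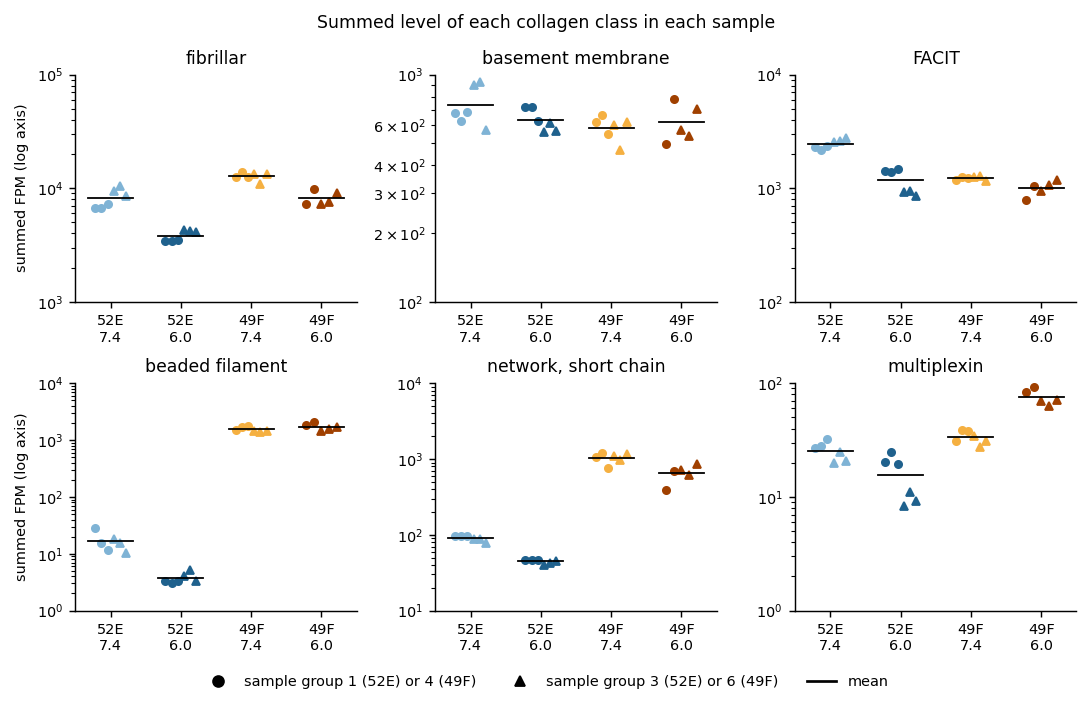
Summed FPM per sample (vertical log axis) of 6 collagen classes by cell line (52E for NRK-52E, 49F for NRK-49F) and pH, with circles and triangles for the sample groups and a line for the mean. Fibrillar and FACIT sums of NRK-52E cells lie lower at pH 6.0 without overlap, while the basement membrane sums overlap.

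Promoter sequences from RefSeq (build GRCr8) were found for 35 of the 44 genes, 22 of them tested. The following stretches of the DNA before the RefSeq start are shown because these genes carry the main patterns described further on, namely a pair of chains with a shared start region (Col4a1 and Col4a2), a chain high in the fibroblast line alone (Col1a2), a chain that rose in both lines (Col20a1) and a chain that moved in opposite directions (Col18a1). Those of Col20a1 and Col18a1 end at the base before the start, whereas that of Col1a2 lies further upstream. Capitals mark the CCAAT box, the TATA box (TATAAA) and the GC box (GGGCGG) on either strand.
Col4a1 (chr16:84885521-84885596, plus strand, all bases between the starts of Col4a1 and Col4a2): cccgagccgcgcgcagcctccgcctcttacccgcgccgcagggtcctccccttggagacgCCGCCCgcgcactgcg
Col1a2 (chr4:33518307-33518406, plus strand, bases 250 to 151 before the start): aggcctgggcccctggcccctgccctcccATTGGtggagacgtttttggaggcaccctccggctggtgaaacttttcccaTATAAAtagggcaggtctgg
Col20a1 (chr3:188479402-188479501, plus strand): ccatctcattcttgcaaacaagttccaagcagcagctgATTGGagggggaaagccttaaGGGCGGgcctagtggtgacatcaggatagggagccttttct
Col18a1 (chr20:11473545-11473644, plus strand): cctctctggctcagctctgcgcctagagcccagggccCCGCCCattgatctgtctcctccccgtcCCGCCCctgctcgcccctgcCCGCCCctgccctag
In the 250 bases before the start, GGGCGG occurred in 19 of 35 collagen genes and in 32.4% of all 27457 promoters. CCAAT occurred in 11 of 35 and in 34.3% of all, and TATAAA in 4 of 35 and in 13.1% of all. TGATGNAA, a motif bound by C/EBP and ATF factors, occurred in 0 of 35 and in 3.27% of all. CACGTG, the core of the E-box, also occurred in 0 of 35, with 5.79% of all promoters holding it. Both strands were searched, and overlapping matches of different motifs were counted for each. A match is a description of the sequence only.

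Type I collagen, the main fibre protein of scar and tendon, is a trimer of chains from Col1a1 and Col1a2. In NRK-49F cells Col1a1 had between 4856 and 6510 FPM at pH 7.4 (median 6042), and 3185, 4492, 3251, 3455 and 4464 FPM at pH 6.0. All samples at pH 6.0 lay below all samples at pH 7.4. In the common model the log2 fold change was −0.64 ± 0.35 (SE) with an adjusted p of 0.183, and with NRK-49F cells fitted alone it was −0.65 with an adjusted p of 0.00198 (both edgeR). With sample group as a term, the common model also called it (−0.64, adjusted p = 0.0108). In NRK-52E cells Col1a1 had between 17.8 and 120 FPM at pH 7.4 (median 52.7) and between 15.2 and 34.5 FPM at pH 6.0 (median 24.9), and these ranges overlapped. Its fall of −1.22 ± 0.34 passed the test (adjusted p = 0.00369), but without A021, A022 and A033 it was −0.72 with an adjusted p of 0.0859.

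Col1a2 had between 3823 and 4887 FPM in NRK-49F cells at pH 7.4 (median 4531), and 3159, 3983, 2930, 3078 and 3489 FPM at pH 6.0. The 2 ranges overlapped in a single sample, A043, whose level lay above the lowest control. The change was −0.43 ± 0.65 (adjusted p = 0.667) in the common model and −0.44 (adjusted p = 0.00756) with NRK-49F cells alone. In NRK-52E cells at pH 7.4 the samples A021, A022 and A033 had 52.9, 15.4 and 10.9 FPM of Col1a2, while A023, A034 and A035 had 0.415, 0.654 and 0.509 FPM, close to the 0.0546 to 0.670 FPM of the samples at pH 6.0. The fall in NRK-52E cells of −5.17 ± 0.93 (adjusted p = 4.13e-05) rests on the first 3 samples: without them it was −0.45 with an adjusted p of 0.327. Its stretch printed above, which is not next to the start, holds both a TATAAA and a CCAAT, the latter on the complementary strand.

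Col3a1, the chain of type III collagen that accompanies type I in soft tissue, fell in both lines. In NRK-52E cells it had between 4678 and 8037 FPM at pH 7.4 (median 6017) and between 1789 and 3077 FPM at pH 6.0 (median 2366). In NRK-49F cells it had between 1108 and 1415 FPM at pH 7.4 (median 1169), and 366, 520, 392, 448 and 439 FPM at pH 6.0. The pH values did not overlap in either line, and the epithelial line lay above the fibroblast line at both pH values. The log2 fold changes were −1.36 ± 0.16 (adjusted p = 1.27e-07) and −1.49 ± 0.17 (adjusted p = 5.47e-07), and their difference was 0.13 with a 95% interval from −0.32 to 0.58 (adjusted p = 0.692). Between the lines, NRK-49F cells had 5.07-fold less Col3a1 at pH 7.4 (log2 difference −2.34 ± 0.17, adjusted p = 6.25e-12). Within NRK-52E cells, sample group 3 lay above group 1 at each pH, yet no difference of the response was detected between these groups (0.15 ± 0.18, adjusted p = 0.671).

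The type V chains, which start fibres and set their diameter, fell in both lines as well. Col5a3 went from between 170 and 321 FPM (median 231) to between 56.9 and 80.0 FPM (median 70.9) in NRK-52E cells, and from between 83.7 and 123 FPM to 21.5, 29.1, 18.7, 22.3 and 26.6 FPM in NRK-49F cells. No sample overlapped, and the log2 fold changes were −1.76 ± 0.14 (adjusted p = 2.42e-10) and −2.21 ± 0.16 (adjusted p = 2.12e-10). Col5a1 was changed by −0.51 ± 0.14 (adjusted p = 0.00312) in NRK-52E cells, where the pH values overlapped. In NRK-49F cells Col5a1 fell by 0.95 ± 0.15 on the log2 scale (adjusted p = 3.45e-05), from between 285 and 474 FPM to 140, 258, 174, 185 and 249 FPM, without overlap. Col5a2 changed by −0.38 ± 0.13 (adjusted p = 0.0112) and −0.73 ± 0.13 (adjusted p = 0.000193). In the epithelial line it changed by −0.76 in sample group 3 and −0.05 in sample group 1, and this difference passed its own test (−0.70 ± 0.20, adjusted p = 0.0265). Fitted with NRK-52E cells alone, Col5a2 was no longer called (−0.29, adjusted p = 0.0643).

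The minor fibrillar chains did not share 1 direction. Col27a1, of cartilage-type fibres, had between 0.783 and 1.82 FPM in NRK-52E cells at pH 7.4 and between 0 and 0.296 FPM at pH 6.0, a fall of −3.66 ± 0.38 (adjusted p = 1.58e-08). In NRK-49F cells Col27a1 had between 22.1 and 34.9 FPM, and at pH 6.0 30.8, 50.2, 36.4, 35.5 and 49.2 FPM, a rise of 0.56 ± 0.19 (adjusted p = 0.0294) with overlap of a few samples. This rise lost its call when any 1 of 5 samples was left out (A039, A041, A043, A052 or A056, adjusted p up to 0.0906), while the difference between the lines held in each case (−4.23 ± 0.43, adjusted p = 5.28e-08, at most 3.4e-07). Col2a1, the cartilage fibre chain, was at or below 3 counts in every NRK-52E sample at pH 7.4 and had 2.28, 1.47 and 1.95 FPM in sample group 1 and 12.4, 10.0 and 6.46 FPM in sample group 3 at pH 6.0. Its mean of 5.76 FPM is at least 41.7-fold higher than the level of 3 counts averaged over the control libraries (adjusted p = 5.51e-08), whereas in NRK-49F cells it reached at most 0.366 FPM. Col2a1 passed the filter only through the acidic NRK-52E samples, so its p-value is not separate from that choice. The difference of the responses of Col2a1 was called (5.96) but lost its call without the NRK-49F control A051 (4.58, adjusted p = 0.112). Col11a2, a partner chain of type XI fibres, had medians of 49.7 and 54.3 FPM in NRK-52E cells (0.10, 95% interval −0.14 to 0.33) and changed by −0.49 ± 0.14 in NRK-49F cells (adjusted p = 0.0112), from between 5.53 and 9.74 FPM to between 4.12 and 5.79 FPM. This fall was called neither in sample groups 1 and 4 alone nor in sample groups 3 and 6 alone.

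**Figure D3:**
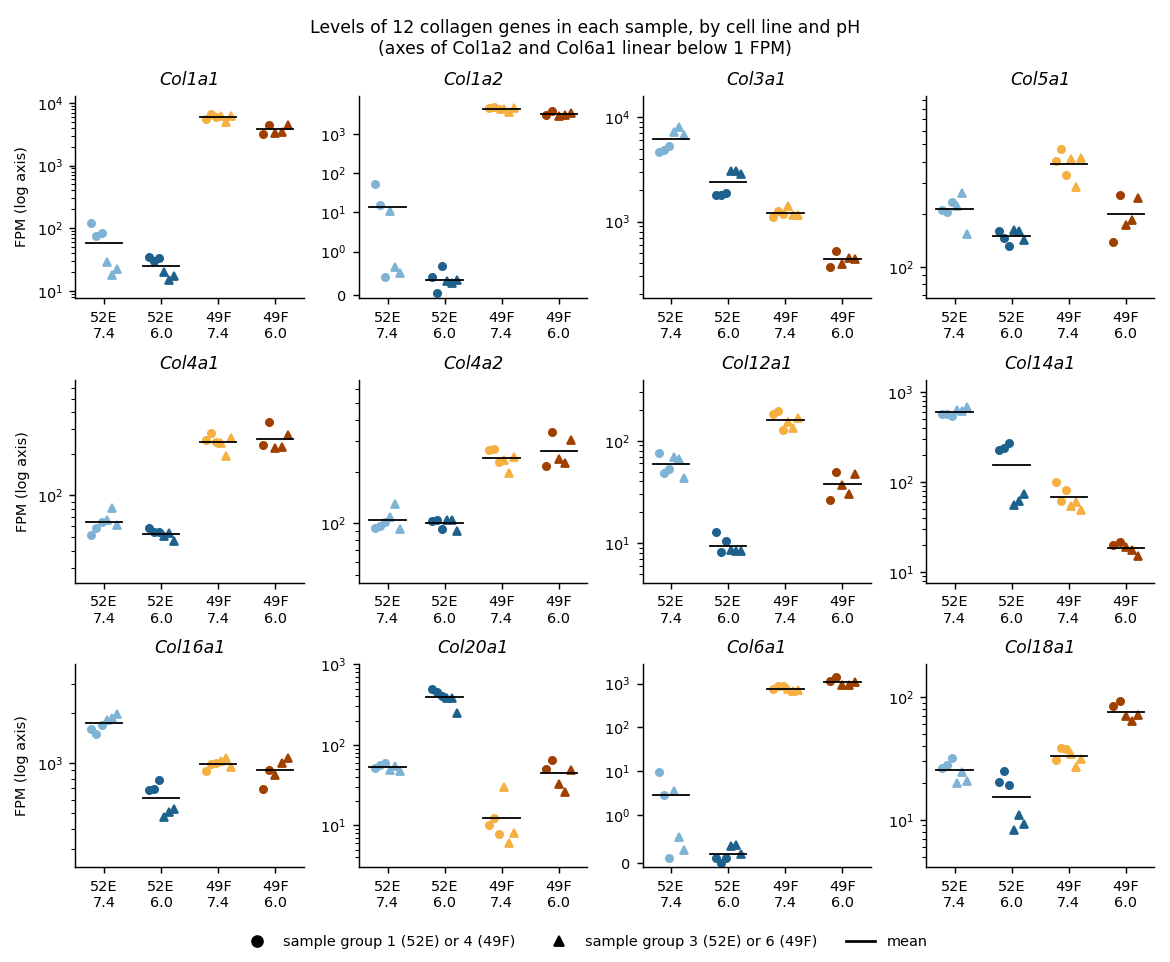
FPM per sample (vertical log axis, linear below 1 FPM for Col1a2 and Col6a1) of 12 collagen genes by cell line (52E for NRK-52E, 49F for NRK-49F) and pH, with circles and triangles for the sample groups and a line for the mean. Col3a1, Col12a1 and Col14a1 lie lower at pH 6.0 in both lines, Col20a1 lies higher in NRK-52E without overlap, and 3 of the 6 NRK-52E control samples lie apart from the others in Col1a2 and Col6a1.

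Among the FACIT chains, 4 of 5 tested changed in each line, beside 61.2% of all tested genes in NRK-52E and 28.9% in NRK-49F cells. Col12a1, which lines type I fibres under tension, fell from between 43.4 and 75.4 FPM (median 59.5) to between 8.19 and 12.7 FPM (median 8.49) in the epithelial line. In the fibroblast line Col12a1 fell from between 127 and 196 FPM (median 161) to 26.4, 50.1, 37.3, 30.3 and 47.1 FPM. Neither line showed overlap, with log2 fold changes of −2.65 ± 0.18 (adjusted p = 8.77e-12) and −2.07 ± 0.18 (adjusted p = 5.95e-09). The difference between both was −0.59 with an adjusted p of 0.0515. It passed the threshold under upper quartile scaling (−0.60, adjusted p = 0.0491), with sample group as a term (−0.60, adjusted p = 0.0475) and in sample groups 3 and 6 alone (−0.83, adjusted p = 0.0256). It did not in sample groups 1 and 4 alone (−0.36, adjusted p = 0.569) or without A021, A022 and A033 (−0.45, adjusted p = 0.182).

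Col14a1, a chain on the surface of type I fibres, fell from between 544 and 686 FPM to between 55.4 and 274 FPM in NRK-52E cells (−1.96 ± 0.31, adjusted p = 9.32e-06). The samples at pH 6.0 split by sample group, with 229, 240 and 274 FPM in group 1 and 55.4, 62.1 and 73.8 FPM in group 3. The response was 4.46-fold stronger in group 3 (−2.16 ± 0.20, adjusted p = 2.49e-06), the clearest difference between sample groups among the collagen genes by its adjusted p. In NRK-49F cells Col14a1 went from between 49.3 and 101 FPM to 19.8, 21.7, 18.8, 17.4 and 15.2 FPM (−1.87 ± 0.34, adjusted p = 0.000194), and no difference between groups 4 and 6 was detected (0.30 ± 0.22, adjusted p = 1). The difference between the lines was −0.09 over all samples, 0.79 in sample groups 1 and 4 alone and −1.67 in sample groups 3 and 6 alone, with adjusted p of 0.900, 0.0322 and 1.38e-05.

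Col16a1, another FACIT chain, fell in the epithelial line, and its response differed between the lines. It had between 1491 and 1969 FPM (median 1746) in NRK-52E cells at pH 7.4 and between 468 and 790 FPM (median 605) at pH 6.0, without overlap (−1.51 ± 0.12, adjusted p = 3.31e-10). In NRK-49F cells it had between 888 and 1072 FPM, and 694, 909, 848, 1000 and 1066 FPM at pH 6.0, a change of −0.12 with a 95% interval from −0.37 to 0.13. The difference between the responses was −1.38 ± 0.18 (adjusted p = 1.23e-06). The order of the lines differed between the pH values. Col16a1 was lower in NRK-49F than in NRK-52E cells at pH 7.4 (−0.82 ± 0.12, adjusted p = 2.16e-06) and higher at pH 6.0 (0.56 ± 0.13, adjusted p = 0.000329). Its response in NRK-52E cells was stronger in sample group 3 than in group 1 (−1.92 against −1.14, difference −0.78 ± 0.16, adjusted p = 0.00376).

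Col20a1, a FACIT chain of less known role, was the one tested collagen gene higher at pH 6.0 in both lines. In NRK-52E cells it had between 47.6 and 59.3 FPM (median 53.3) at pH 7.4 and between 245 and 501 FPM (median 395) at pH 6.0, a 7.43-fold rise (2.89 ± 0.30, adjusted p = 1.13e-08). In NRK-49F cells it had 10.0, 12.1, 7.77, 30.2, 6.03 and 8.03 FPM at pH 7.4 and 50.4, 65.5, 32.4, 26.2 and 48.0 FPM at pH 6.0, a 3.56-fold rise (1.83 ± 0.30, adjusted p = 5.78e-05). Overlap in NRK-49F cells came from the control sample A051, whose 30.2 FPM exceeded 1 acid sample. The rise of Col20a1 in NRK-49F cells was 2.53 in sample groups 1 and 4 alone (adjusted p = 4.49e-06), and 1.25 in sample groups 3 and 6 alone, which include A051, where it was not called (adjusted p = 0.0832). The difference between the lines passed narrowly (1.06 ± 0.41, adjusted p = 0.0408) and lost its call when any 1 of 14 samples was left out, with 0.56 and an adjusted p of 0.123 without A051. Its promoter stretch holds a CCAAT on the complementary strand followed by a GGGCGG. Of the low FACIT chains, Col9a2 had means of 0.893 and 0.353 FPM in NRK-49F cells (−1.30 ± 0.44, adjusted p = 0.0289), a call lost without any 1 of 4 samples (A040, A041, A042 or A054).

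Of the basement membrane chains 2 of 5 tested were called in each line, all lower, beside 36.6% of all tested genes lower in NRK-52E and 14.4% in NRK-49F cells, and the median log2 fold change was −0.27 in the epithelial and 0.00 in the fibroblast line. Col4a1 and Col4a2, the widespread chains of type IV collagen, lie head to head with 76 bases between their starts, printed above. In NRK-52E cells Col4a1 had between 52.2 and 81.6 FPM at pH 7.4 and between 46.9 and 58.3 FPM at pH 6.0, and Col4a2 had between 93.3 and 129 FPM and between 90.4 and 105 FPM. In NRK-49F cells Col4a1 had between 192 and 282 FPM, and 231, 341, 220, 223 and 271 FPM at pH 6.0, and Col4a2 had between 195 and 269 FPM, and 216, 341, 237, 223 and 306 FPM. The pH values overlapped for both genes and both lines. Col4a2 changed by −0.05 (95% interval −0.27 to 0.16) and 0.15 (−0.08 to 0.37), and Col4a1 by 0.07 (−0.16 to 0.30) in NRK-49F cells. The fall of Col4a1 in NRK-52E cells (−0.27 ± 0.11, adjusted p = 0.0419) was lost when any 1 of 8 samples was left out and under DESeq2 (adjusted p = 0.0895). Both chains were higher in the fibroblast line at pH 7.4, Col4a1 by 3.81-fold (adjusted p = 3.1e-13) and Col4a2 by 2.30-fold (adjusted p = 7.81e-10).

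Col4a4, Col4a5 and Col4a6 belong to the specialised networks of glomerular and tubular basement membranes. Col4a5 had between 403 and 707 FPM in NRK-52E cells at pH 7.4 and between 397 and 557 FPM at pH 6.0 (−0.21, 95% interval −0.56 to 0.14). In NRK-49F cells Col4a5 had between 70.1 and 118 FPM, and 48.0, 96.0, 107, 88.4 and 124 FPM at pH 6.0 (0.00, −0.37 to 0.37). No change of Col4a5 was detected in either line, and the epithelial line had 5.93-fold more of it at pH 7.4 (adjusted p = 1.25e-11). Col4a4 fell in NRK-52E cells from between 10.2 and 16.7 FPM to between 1.78 and 4.42 FPM (−2.24 ± 0.32, adjusted p = 1.6e-06). In NRK-49F cells Col4a4 had at most 1.17 FPM at pH 7.4 and 0.223 FPM at pH 6.0 (−2.33 ± 0.60, adjusted p = 0.00472). Col4a6, whose gene lies on chromosome X as does Col4a5, was at most 0.420 FPM in the epithelial line and fell in the fibroblast line from between 5.14 and 8.18 FPM to 1.32, 3.78, 3.23, 3.10 and 3.89 FPM (−1.14 ± 0.37, adjusted p = 0.0215), a call lost without A042 (adjusted p = 0.0584).

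The main chains of type VI collagen, which forms the filaments between cells and fibres, were genes of the fibroblast line. In NRK-49F cells at pH 7.4 Col6a1 had between 670 and 865 FPM, Col6a2 between 673 and 878 FPM and Col6a3 between 23.6 and 37.6 FPM. In NRK-52E cells at pH 7.4 the same genes had at most 9.63, 8.65 and 0.448 FPM. At pH 6.0 they had at most 0.386, 0.717 and 2.36 FPM there, and at least 930, 513 and 28.5 FPM in NRK-49F cells. No sample of the lines overlapped at the same pH. At pH 7.4 the line difference was 7.99 ± 0.58 for Col6a1 (adjusted p = 8.41e-12), 7.77 ± 0.43 for Col6a2 (adjusted p = 5.61e-14) and 7.51 ± 0.34 for Col6a3 (adjusted p = 1.34e-15). Col6a1 passed the filter only through NRK-49F samples, where it was high, so its p-value is not separate from that choice.

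Within NRK-49F cells, Col6a1 and Col6a2 moved apart at pH 6.0. Col6a1 had 1135, 1387, 930, 957 and 1094 FPM at pH 6.0, above the highest control of 865 FPM, while Col6a2 had 674, 670, 513, 568 and 550 FPM, so that A042 alone reached the lowest control. In the common model neither passed (0.52 ± 0.43, adjusted p = 0.402, and −0.32 ± 0.33, adjusted p = 0.509), and with NRK-49F cells alone both did (0.51, adjusted p = 0.00397, and −0.32, adjusted p = 0.0231). The ratio of Col6a1 to Col6a2 counts, in which transcript length is the same for every sample, was between 0.952 and 1.10 at pH 7.4 and between 1.68 and 2.07 at pH 6.0, with no overlap, a description without a test. The same ratio for Col1a1 to Col1a2 was between 1.21 and 1.40 and between 1.01 and 1.28, where A056 alone of the acid samples reached the control range. For Col5a1 to Col5a2 it was between 0.491 and 0.655 and between 0.422 and 0.566, with overlap. For Col4a1 to Col4a2 it was between 0.936 and 1.08 and between 0.886 and 1.07. Col6a3 had 31.0, 49.1, 29.4, 28.5 and 45.8 FPM in acidic NRK-49F cells (0.27, 95% interval −0.15 to 0.70).

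**Figure D4:**
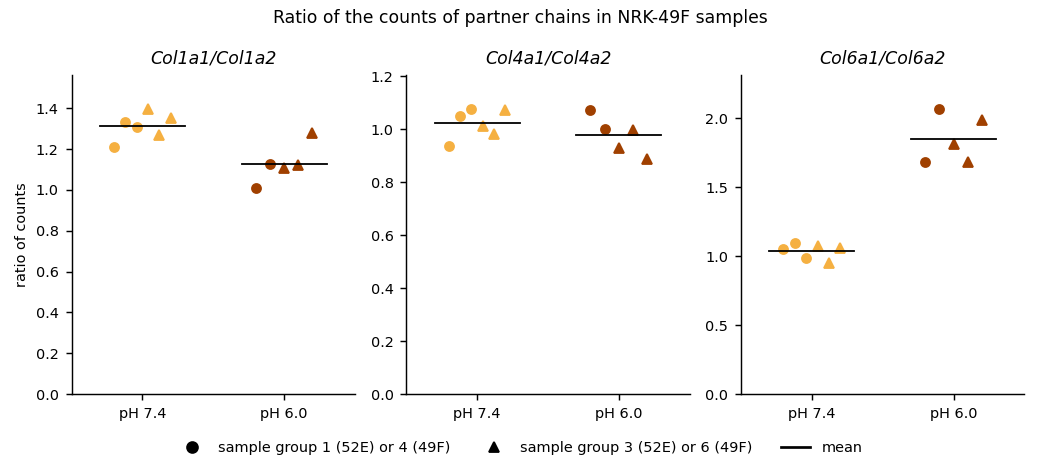
Ratio of the counts of 2 partner chains (vertical axis from 0) in each NRK-49F sample at pH 7.4 and pH 6.0, with circles for sample group 4, triangles for sample group 6 and a line for the mean. The Col6a1 to Col6a2 ratio lies between 1.68 and 2.07 at pH 6.0, above all control samples, while the Col4a1 to Col4a2 ratios overlap.

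In NRK-52E cells the type VI chains were low and moved unequally. Col6a1 had 9.63, 2.80 and 3.41 FPM in A021, A022 and A033 and at most 0.545 FPM in the other control samples, a change of −3.97 ± 0.80 (adjusted p = 0.000152) that became −0.63 (adjusted p = 0.362) without these 3 samples. Col6a2 had 8.65, 2.80 and 3.55 FPM in them and between 0.302 and 2.18 FPM in the other controls, and its change of −3.40 ± 0.54 (adjusted p = 9.35e-06) was −2.15 (adjusted p = 0.000935) without them. Both calls thus share the samples that carried Col1a2, and of the pair only that of Col6a2 held when these were left out. Col6a3 was higher at pH 6.0, from at most 0.448 FPM to between 1.40 and 2.36 FPM (3.46 ± 0.38, adjusted p = 4.51e-08), in all 6 samples above all controls. Col6a6, a chain that can stand in for Col6a3, fell from between 6.28 and 10.9 FPM to between 0.296 and 1.42 FPM (−3.18 ± 0.30, adjusted p = 3.15e-09), while it reached at most 0.311 FPM in NRK-49F cells. Col6a5, a related chain, had means of 1.02 and 0.219 FPM (−2.14 ± 0.68, adjusted p = 0.00996). The short-chain collagen Col8a2, of the sheets under endothelia, had between 73.6 and 91.7 FPM in control NRK-52E cells and between 39.2 and 45.0 FPM at pH 6.0 (−0.93 ± 0.12, adjusted p = 2.99e-07). In NRK-49F cells Col8a2 went from between 4.87 and 9.85 FPM to 2.45, 2.80, 2.0, 2.20 and 2.39 FPM (−1.58 ± 0.15, adjusted p = 2.03e-08), so its fall was larger in the fibroblast line (difference 0.65 ± 0.19, adjusted p = 0.00728). Its partner Col8a1 was a gene of the fibroblast line, with between 762 and 1183 FPM at pH 7.4 and 390, 686, 709, 619 and 867 FPM at pH 6.0 (−0.67 ± 0.30, adjusted p = 0.105). This change of Col8a1 was called with NRK-49F cells alone (−0.68, adjusted p = 0.00982), with sample group as a term (−0.71, adjusted p = 0.0327) and without A021, A022 and A033 (−0.67, adjusted p = 0.0153).

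Col18a1, the chain of basement membrane zones from which endostatin is cut, moved in opposite directions. In NRK-52E cells it had between 19.9 and 32.1 FPM at pH 7.4 and between 8.22 and 24.9 FPM at pH 6.0 (−0.71 ± 0.21, adjusted p = 0.00474). In NRK-49F cells it had between 27.2 and 38.4 FPM (median 32.7) at pH 7.4 and 84.1, 92.6, 69.5, 63.5 and 71.6 FPM at pH 6.0 (1.20 ± 0.21, adjusted p = 0.000131). The samples of NRK-49F cells did not overlap, while those of NRK-52E cells did, since sample group 1 at pH 6.0 had 20.2, 24.9 and 19.4 FPM and group 3 had 8.22, 11 and 9.27 FPM. The difference between the lines was −1.91 ± 0.30 (adjusted p = 1.67e-05) and kept its direction and its call in each sample group and with each sample left out. At pH 7.4 no difference between the lines was detected (0.39, 95% interval −0.01 to 0.79) while NRK-49F cells had more at pH 6.0 (2.30 ± 0.22, adjusted p = 1.04e-09). Its promoter stretch holds GGGCGG on the complementary strand at 3 places. The membrane-anchored Col23a1 was higher at pH 6.0 in NRK-52E cells, with between 0 and 0.226 FPM at pH 7.4 and between 1.22 and 2.46 FPM at pH 6.0 (4.13 ± 0.51, adjusted p = 1.98e-07), and was at most 0.140 FPM in NRK-49F cells. Col23a1 passed the filter only through these acidic NRK-52E samples, so its p-value is not separate from that choice.

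Tested as a difference of the responses, 14 of the 28 chains differed between the lines, against 41.4% of all tested genes. The value was higher in the epithelial line for 6 chains, beside 16.8% of all genes, and lower for 8, beside 24.7%. Without A021, A022 and A033 these were 4 and 6 chains. Of the 8 genes lower in both lines (Col3a1, Col5a1, Col5a2, Col5a3, Col4a4, Col12a1, Col14a1 and Col8a2), only Col8a2 differed by this test, and with sample group as a term Col5a3 (0.46, adjusted p = 0.0246) and Col12a1 did too. In sample groups 3 and 6 alone, the falls of Col5a1 in NRK-52E and Col4a4 in NRK-49F cells were not called. In sample groups 1 and 4 alone, neither the fall of Col5a2 in NRK-52E cells nor the difference of Col8a2 was called. The pH values did not overlap for 14 of the 28 chains in the epithelial line, where the share of all tested genes was 38.6%. These were 4 higher (15.4% of all genes) and 10 lower (23.2%). Col2a1 and Col23a1, which passed the filter only through acidic NRK-52E samples, count among these 4 and among the 6 above. In the fibroblast line 11 chains did not overlap, where the share was 20.6%, namely 2 higher (10.4%) and 9 lower (10.2%). Between the lines, 24 of the 28 chains differed at pH 7.4, against 68.8% of all tested genes, with 12 higher in NRK-49F cells (33.9% of all genes) and 12 lower (35%). At pH 6.0, 27 differed, against 75.5%, with 14 higher (38.9%) and 13 lower (36.6%). The samples of the lines did not overlap for 24 chains at pH 7.4, where 50.7% of all genes did not, and for 24 at pH 6.0, where the share was 57.3%. In each case 12 were higher (25.5% and 30.3% of all genes) and 12 lower (25.2% and 27%). Of the 28 chains, Col6a1 and Col4a6 passed the filter only through NRK-49F samples. Col2a1, Col6a5, Col6a6 and Col23a1 passed it only through NRK-52E samples, so the counts between the lines partly follow from the filter. The responses of the lines share no samples, but the comparisons between lines use the same samples as the responses.

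The sample groups of NRK-52E cells differed in the response of 5 of 30 collagen genes tested in a model with sample groups, while 9.91% of all genes did. The response was higher in group 3 for Col1a1, beside 3.45% of all genes, and lower for Col5a2, Col14a1, Col16a1 and Col18a1, beside 6.46%. Without the samples A021 or A036 in turn, 0 chains were higher. Unadjusted, 7 chains were under 0.05, and DESeq2 called 6. Col1a1 had 120, 76.5 and 83.1 FPM in group 1 and 28.9, 17.8 and 22.2 FPM in group 3 at pH 7.4, and 34.5, 29.9 and 33.8 FPM against 19.8, 15.2 and 17.2 FPM at pH 6.0. Its response was −1.51 in group 1 and −0.40 in group 3 (difference 1.11 ± 0.28, adjusted p = 0.016), a call lost without A021 and without A036. Col18a1 changed by −0.44 in group 1 and −1.19 in group 3 (difference −0.76 ± 0.19, adjusted p = 0.0142). In NRK-49F cells edgeR called 0 of 30 genes between groups 6 and 4, with 1 at an unadjusted p under 0.05 and 0 by DESeq2, and over all genes 0, 624 and 10, so that 0% of all genes were called by edgeR in either direction. With only A042 and A043 in group 4 at pH 6.0, this does not show that the groups responded alike. What a sample group stands for is not given in the sources used here, and the cause of these differences was not tested.

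Since Col1a2 and Col6a1 were higher in A021, A022 and A033 than in the other NRK-52E samples at pH 7.4, the levels of collagen chains were set beside those of 95 other protein-coding genes with at least 20 FPM in NRK-49F cells at pH 7.4 and at most 3 counts in every NRK-52E sample at pH 6.0. In A021 these genes had a median of 1.39% of their NRK-49F level (quartiles 0.984% and 1.69%), in A022 0.400% (0.207% and 0.644%) and in A033 0.270% (0.0801% and 0.498%), while the median was 0 in the other control samples. The choice of genes makes the values at pH 6.0 low by construction, and the shares depend on the genes chosen. For 15 fibroblast markers, which were not chosen to be low in NRK-52E cells, the median was 2.37%, 0.834% and 0.841% in A021, A022 and A033, and 0.780%, 0.285% and 0.149% in A023, A034 and A035, so that A023 lay close to A022 and A033. In the samples at pH 6.0 it was between 0.0831% and 0.389%. The shares that follow refer to the 95 genes. Col1a2 reached 1.18%, 0.345% and 0.244% of its NRK-49F level in these samples, inside the quartiles each time. Col6a1 with 1.25%, 0.365% and 0.445%, Col6a2 with 1.17%, 0.378% and 0.479%, and Col6a3 with 1.47%, 0.354% and 0.300% also lay inside. The 3 samples thus held these 4 chains at shares within the middle of the other NRK-49F genes.

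Col8a1 and Col1a1 lay outside the quartiles, with Col1a1 in A033 as the exception. Col8a1 stood at 1.70%, 0.745% and 0.687%, above the upper quartile in each, and after subtraction of the estimated share it kept between 2.94 and 4.33 FPM in all 6 control samples, against 0.444 to 1.91 FPM at pH 6.0. Its fall in NRK-52E cells (−2.68 ± 0.38, adjusted p = 2.01e-06) became −1.68 in that fit (adjusted p = 2.5e-06) and −1.68 without the 3 samples (adjusted p = 9.35e-05), both still called. The difference of its responses, −2.01, became −1.01 in either case (adjusted p = 0.0106 and 0.0351), and was not called in sample groups 1 and 4 alone (−1.76, adjusted p = 0.0814). Col1a1 kept between 13.0 and 83.1 FPM, most of all in A023, where the median share was 0. As that share was also 0 in A034, A035 and the samples at pH 6.0, the subtraction lowered A021, A022 and A033 only. It could thus lower control levels only, and the fibroblast markers gave shares above 0 in the other samples too. With the estimated signal subtracted, the changes in NRK-52E cells were 0.67 for Col1a2 (adjusted p = 0.328), −0.87 for Col6a1 (adjusted p = 0.302), −1.51 for Col6a2 (adjusted p = 0.0607) and −0.60 for Col1a1 (adjusted p = 0.103), so that none of the 4 falls remained called, and 4 genes were higher and 14 lower in all. Col6a2 was at 2.18 and 2.04 FPM in A034 and A035, where the median share was 0, and its fall was still called without the 3 samples.

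**Figure D5:**
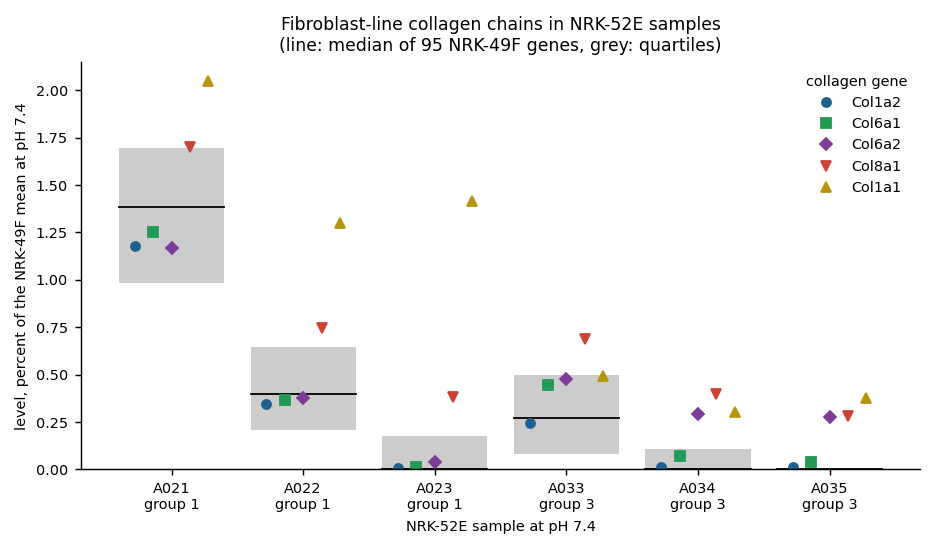
Level of 5 collagen genes in each NRK-52E sample at pH 7.4 as a percent of their mean in NRK-49F samples at pH 7.4 (vertical axis from 0), with the median (line) and quartiles (grey) of 95 other NRK-49F genes. Col1a2, Col6a1 and Col6a2 lie within the grey range in A021, A022 and A033, while Col8a1 lies above it in all 6 samples and Col1a1 in all but A033.

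Over the 11 NRK-49F samples, the genes whose log2(FPM + 1) followed Col1a1 most closely were Arhgef1 (Pearson's r = 0.988), Farp1 (0.985), Tnrc18 (0.984), Col5a1 (0.981) and Erbb2 (0.981) among 10257 genes. All points share the 2 pH values and their libraries, so these are descriptions.

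The enzymes and carriers that modify, fold, export and crosslink collagen changed in both directions. In a list of 44 genes, of which 41 were tested, the epithelial line had 13 higher and 18 lower, and the fibroblast line 7 and 10, with medians of −0.30 and −0.11. The list also holds 7 genes of collagen receptors and uptake, which these counts include. Of these 7, 4 were lower in the epithelial line, and 2 were higher and 1 lower in the fibroblast line. The background over all tested genes was 24.7% higher and 36.6% lower in the epithelial line, and 14.5% higher and 14.4% lower in the fibroblast line, with medians of −0.12 and 0.00. Of 10 tested genes of folding and secretion, 7 rose and 2 fell in NRK-52E cells, to be read beside those shares, with a median log2 fold change of 0.66, while in NRK-49F cells Klhl12 rose and Creb3l1 fell (median −0.07). Serpinh1, the collagen chaperone HSP47, rose from a mean of 1242 to 2581 FPM in NRK-52E cells (1.06 ± 0.11, adjusted p = 1.06e-08) and changed by −0.06 ± 0.11 in NRK-49F cells, a difference that passed its test (1.11, adjusted p = 4.05e-06). The largest rises in NRK-52E cells among genes with a mean of 5 FPM in that line were Sec24d (1.76 ± 0.18), Sec23a (1.32 ± 0.09) and Fkbp14 (1.19 ± 0.08), of which Sec23a and Sec24d belong to the coat of vesicles that carry procollagen out of the endoplasmic reticulum. P4ha1, the catalytic subunit of the main prolyl hydroxylase, rose as well (1.07 ± 0.08, adjusted p = 1.27e-10). The secretion factor Mia3 (0.77 ± 0.09) and the collagen glycosyltransferase Colgalt1 (0.88 ± 0.09) rose too, whereas the lysyl hydroxylase Plod1 fell (−0.66 ± 0.07).

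Of the 5 crosslinking enzymes, 4 were lower in the epithelial and 2 in the fibroblast line, and none of the 5 was higher in either, beside 36.6% and 14.4% of all tested genes lower. The largest falls in NRK-52E cells were Loxl1 (−3.24 ± 0.22), Loxl3 (−1.64 ± 0.13) and Loxl2 (−1.62 ± 0.16), and Loxl1, which is also on the fibroblast marker list, had means of 22.4 and 2.36 FPM there. Lox itself had a change of −0.25 ± 0.21 (adjusted p = 0.309) in the epithelial line and fell in the fibroblast line from a mean of 221 to 70.9 FPM (−1.64 ± 0.23, adjusted p = 6.41e-06). The procollagen proteinase Bmp1 fell in both lines (−1.25 ± 0.07, adjusted p = 1.83e-13, and −0.51 ± 0.07, adjusted p = 3.18e-06), as did its enhancer Pcolce (−0.87 ± 0.16 and −0.52 ± 0.17) and the N-proteinase Adamts2 (−1.12 ± 0.10 and −0.67 ± 0.10). In NRK-49F cells the largest falls were the collagen receptor subunit Itga11 (−1.75 ± 0.23, adjusted p = 3.24e-06), Lox and Loxl2 (−1.01 ± 0.16), and the largest rises Itga10 (1.17 ± 0.22, adjusted p = 0.000309), Plod3 (0.45 ± 0.07) and Colgalt1 (0.36 ± 0.10).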

How the data were processed

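Poly(A) RNA was sequenced as read pairs. The authors deposited raw counts per Ensembl gene, made with HISAT2 2.1.0 and featureCounts with multi-mapping reads included and without normalization. The paper's methods name the build rn7 and the submitters' processing notes rn6, and the strand setting is not given in the sources used here, so chains that share reads with similar or antisense genes are uncertain. Of the per-sample columns 13 matched no label and were not used.

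Counts of all 23 samples were fitted in a single model with 4 conditions by edgeR 4.0.16 in R 4.3.3 (filterByExpr, minimum count 10, total 15, TMM scaling, quasi-likelihood test, Benjamini-Hochberg adjusted p under 0.05), and in a second model with the sample groups. The SE is the absolute log2 fold change divided by the square root of F. FPM came from the scaled library size. DESeq2 1.42.0 and other settings were alternatives. The steps were tested on simulated data. The members and lists were chosen with earlier results of these data known. Named were all chains with a mean of 5 FPM in a condition, other chains that changed at pH 6.0, and the 3 largest changes each way of the processing list. Sequences were RefSeq (GRCr8), in Python 3.11.15.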

Additional observations from a re-analysis of the deposited data

Results flagged for a closer look

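Of 86 groups of samples examined over the named chains, 5 held a sample far from the others (Dixon's criterion). Chance meets this criterion in about 1 in 20 groups, a rate close to that seen here. In NRK-52E cells at pH 7.4, A021 stood apart with 52.9 FPM of Col1a2 (others at most 15.4), 9.63 FPM of Col6a1 (others at most 3.41) and 17.7 FPM of Col8a1 (others at most 7.75), and A035 with 6.28 FPM of Col6a6 (others at least 9.29). In NRK-49F cells at pH 7.4, A051 stood apart with 30.2 FPM of Col20a1 (others at most 12.1).

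The acid response differed between the lines by a test of the difference itself for 14 chains. The log2 difference of NRK-52E minus NRK-49F was −4.74 for Col1a2, 5.96 for Col2a1 (not called without A051), 0.59 for Col11a2, −4.23 for Col27a1, −1.38 for Col16a1, 1.06 for Col20a1 and −4.49 for Col6a1. It was −3.08 for Col6a2, 3.18 for Col6a3, −3.02 for Col6a6, −2.01 for Col8a1 (−1.01 without A021, A022 and A033), 0.65 for Col8a2, −1.91 for Col18a1 and 5.30 for Col23a1. Of these chains, Col2a1 and Col23a1 passed the filter only through the acidic NRK-52E samples, where they were high. Between the sample groups of NRK-52E cells, the response differed by 1.11 for Col1a1, −0.70 for Col5a2, −2.16 for Col14a1, −0.78 for Col16a1 and −0.76 for Col18a1 (group 3 minus group 1). In the models of all samples, all of these differences had an adjusted p under the threshold in edgeR's test. Without A021, A022 and A033 the difference between the lines was −0.02 for Col1a2 (adjusted p = 0.987) and −1.15 for Col6a1 (adjusted p = 0.139). Col11a2 and Col20a1 also lost their call there. With the NRK-49F signal subtracted it was 1.10 for Col1a2 and −1.19 for Col6a2 (adjusted p = 0.226). Col1a2, Col6a1 and Col6a2 were not called in that fit. Further losses in single sample groups are given below.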

How the results depend on the processing

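No paired analysis was possible because no replicate code occurs at both pH values. The planned levels per transcript length were not run, since no transcript lengths were used here. Requiring at least 10 counts in every sample leaves fewer genes tested, and gave 1 chain higher and 11 lower in the epithelial line, 3 and 2 for the difference of the responses, 5 higher in NRK-49F than in NRK-52E cells at pH 7.4, and 7 higher and 8 lower at pH 6.0. DESeq2 called 2 chains with a higher response in sample group 3 than 1. The difference of the responses was called higher for 3 chains in sample groups 1 and 4 alone and for 3 in groups 3 and 6 alone, where also 1 chain was higher in NRK-49F cells. With the NRK-49F signal subtracted, the difference was called lower for 5. With each sample left out, the counts were 4 to 4 higher and 17 to 20 lower in the epithelial line, 2 to 3 and 9 to 12 in the fibroblast line, 4 to 8 and 8 to 9 for the difference, and 0 to 1 and 3 to 4 between sample groups 3 and 1. For the processing genes they were 11 to 14 and 17 to 18 in NRK-52E cells and 4 to 7 and 7 to 10 in NRK-49F cells, the 4 without A054. By raw totals the FACIT sum was 1157 FPM in NRK-49F cells at pH 7.4 and the short-chain sum 47.4 FPM in NRK-52E cells at pH 6.0. From fibroblast markers the median share of the NRK-49F level was 2.37% in A021, 0.834% in A022, 0.841% in A033 and 0.780% in A023. Of the 14 called differences of the responses, 7 lost their call in sample groups 1 and 4 alone (Col2a1, Col11a2, Col20a1, Col6a6, Col8a1, Col8a2 and Col23a1), 4 in groups 3 and 6 alone (Col1a2, Col11a2, Col20a1 and Col23a1) and 4 without A021, A022 and A033 (Col1a2, Col11a2, Col20a1 and Col6a1). With sample group as a term 0 of the calls at pH 6.0 were lost, and Col9a2 was called in NRK-52E cells as well (−0.93, adjusted p = 0.0293). With each line fitted alone, NRK-49F cells lost 0 of the 13 calls also tested there. They gained 5 (Col1a1, Col1a2, Col6a1, Col6a2 and Col8a1). NRK-52E cells lost 2 of 20 in such a fit (Col5a2 and Col4a1). In groups 1 and 4 alone, NRK-52E cells lost the calls of Col5a2 and Col4a1 at pH 6.0 and gained Col4a6. In groups 3 and 6 alone they lost Col1a1 and Col5a1 and gained Col9a2. NRK-49F cells lost 3 of 14 calls in groups 1 and 4 alone (Col11a2, Col27a1 and Col4a6). In groups 3 and 6 alone they lost 6 of 14 (Col11a2, Col27a1, Col4a4, Col4a6, Col9a2 and Col20a1) and gained Col1a1.

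Directions turned for Col1a2 in NRK-52E cells with the signal subtracted (0.67) and for its difference (1.10), and both were uncalled there. The other turned values were uncalled in the common model, and of these the difference of Col14a1 in groups 1 and 4 alone (0.79) was called. In NRK-52E cells these were Col4a2 (0.035 alone, 0.046 in groups 1 and 4), Col4a5 (0.10 there), Col4a6 (0.025 in groups 3 and 6) and Col11a2 (−0.021 without A021, A022 and A033). In NRK-49F cells in groups 3 and 6 they were Col2a1 (−0.35), Col4a5 (0.12) and Col6a6 (0.052). For the difference they were Col3a1 (−0.033) and Col4a5 (0.39) in groups 1 and 4, Col1a1 (0.23), Col4a4 (−0.78), Col4a6 (1.03) and Col9a2 (−0.75) in groups 3 and 6, Col1a1 (0.038) and Col4a6 (0.12) with the signal subtracted, and Col4a6 without the 3 samples (0.19) and under RLE scaling (0.0072). With single samples left out, uncalled values crossed 0 for the difference of Col14a1 (−0.33 to 0.088), Col4a4 (−0.30 to 0.62) and Col4a6 (−0.68 to 0.35), for Col4a1 (−0.048 to 0.13), Col4a5 (−0.13 to 0.16) and Col6a6 (−0.47 to 0.14) in NRK-49F cells and for Col4a2 (−0.085 to 0.015) in NRK-52E cells. The cause was not tested.

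Depth limits the chains near 3 counts, and 16 of 44 could not be tested.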
